A study of Homo sapiens with 60 samples.

Results

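The 10 genes described here are the 4 CDC2-like kinases CLK1, CLK2, CLK3 and CLK4, the cyclins CCNL1 and CCNL2, the RNA-binding proteins RBM5 and RBM6, and the SR protein kinases SRPK1 and SRPK2. They were taken by symbol from a table of 29744 genes, of which 11298 passed a filter on low counts, and all 10 passed it. Their selection rested on measured values: CLK1 and CLK4 had been seen to be higher, and CLK2, CCNL1, RBM5 and RBM6 lower, in Medium 2 than in Medium 1. The difference between the media is therefore given for them as a description with no test, and the exposures are tested.

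The samples were spheroids of HCT116, an established human colorectal carcinoma line, sequenced as 60 3′-end RNA libraries in 12 groups of 5. In each of Medium 2 and Medium 1 the groups received 1 µM butyrate, 0.1 µM hemin, 1 µM kynurenine, 1 µM kynurenic acid, both hemin and 1 µM kynurenine, or no metabolite (untreated). Titles of the combination name no separate hemin dose, which was taken as the 0.1 µM of the hemin groups. Metabolites were present from day 1 to day 8 after seeding, and all spheroids had grown in high-glucose DMEM with serum, antibiotics and non-essential amino acids. The series design says that spheroids were sampled at once or after 3 h in a nutrient-deprived medium, but no label says which numbered medium that is, so the numbers are kept. Butyrate, a fatty acid, comes from bacterial fermentation of fibre, hemin is the oxidised iron porphyrin of blood and red meat, kynurenine is a breakdown product of tryptophan, and kynurenic acid is made from kynurenine. A single cell line without stroma or immune cells limits the spheroids as a model of the gut wall.

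SR proteins bind exons and the early spliceosome through arginine- and serine-rich tails, and their phosphorylation decides where they sit and whether they engage pre-mRNA. SRPK1 and SRPK2 phosphorylate these tails mainly in the cytoplasm, which sends SR proteins into the nucleus, and the CLK kinases phosphorylate them further inside the nucleus, which releases them from speckles. The CLK transcripts are themselves regulated by splicing: in many cell types part of the CLK1 and CLK4 RNA is held in the nucleus with introns unspliced or lacks a catalytic exon. Cyclins L1 and L2 partner CDK11 in speckles, and RBM5 and RBM6 are neighbouring genes whose proteins alter the choice of exons, those of FAS among them for RBM5.

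The GENCODE annotation of GRCh38 types 74 of the 184 transcripts of these genes as retained intron. At least 1 such transcript is listed for 9 of the 10 genes, against 46.2% of 19936 protein-coding gene names. CLK1 has 8 of 15 transcripts of this type, CLK4 has 7 of 15, CCNL1 and RBM5 have 16 of 26 each, and CLK2 has 0 of 7. A 3′-end count per gene does not separate a spliced transcript from one that keeps an intron, so every level below is a sum over a gene's isoforms.

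The promoter windows of 4 of the genes are shown because CLK1 and CLK4 were the members higher in Medium 2, while CLK2 and CCNL1 were among those lower. Each window runs from 250 bases before to 50 bases after a RefSeq transcript start on GRCh38.p14, is read 5′ to 3′ on the gene's own minus strand, and has the matches named next in capitals. The capitals mark CGTCA, the core of the cyclic AMP response element, and CCATNTT, the core bound by YY1, in CLK1 and CLK4, and the whole element TGACGTCA in CCNL1. The CLK2 window holds none of these 3 motifs and is in lower case throughout.
CLK1, chr2:200864609-200864908: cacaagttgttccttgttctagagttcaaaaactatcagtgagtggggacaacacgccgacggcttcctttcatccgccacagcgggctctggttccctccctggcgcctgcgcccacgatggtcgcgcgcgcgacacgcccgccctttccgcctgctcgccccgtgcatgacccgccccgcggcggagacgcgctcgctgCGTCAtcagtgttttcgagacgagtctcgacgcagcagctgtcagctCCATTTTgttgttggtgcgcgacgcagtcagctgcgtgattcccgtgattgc
CLK4, chr5:178627001-178627300: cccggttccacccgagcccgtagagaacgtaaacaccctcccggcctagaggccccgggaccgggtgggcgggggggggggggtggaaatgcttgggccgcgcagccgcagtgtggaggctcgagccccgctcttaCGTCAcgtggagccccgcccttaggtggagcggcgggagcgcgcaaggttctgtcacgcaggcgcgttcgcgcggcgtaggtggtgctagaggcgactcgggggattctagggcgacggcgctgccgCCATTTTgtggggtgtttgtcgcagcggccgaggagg
CLK2, chr1:155273455-155273754: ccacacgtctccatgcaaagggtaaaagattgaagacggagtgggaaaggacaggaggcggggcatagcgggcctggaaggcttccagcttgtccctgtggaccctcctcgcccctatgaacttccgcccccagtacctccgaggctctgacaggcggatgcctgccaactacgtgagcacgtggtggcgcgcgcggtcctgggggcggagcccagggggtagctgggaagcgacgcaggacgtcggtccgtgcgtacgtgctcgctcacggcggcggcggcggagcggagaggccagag
CCNL1, chr3:157160098-157160397: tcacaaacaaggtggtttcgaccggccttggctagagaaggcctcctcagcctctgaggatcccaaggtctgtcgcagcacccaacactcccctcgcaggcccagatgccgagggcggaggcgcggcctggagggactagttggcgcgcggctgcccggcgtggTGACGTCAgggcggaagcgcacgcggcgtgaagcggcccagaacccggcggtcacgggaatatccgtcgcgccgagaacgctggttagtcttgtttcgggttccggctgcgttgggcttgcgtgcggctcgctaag

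CLK1 and CLK4 windows thus share both a CGTCA and a CCATTTT. In CLK1 the CGTCA begins 49 bases before the start and the CCATTTT 2 bases before it, and in CLK4 they begin 114 bases before and 14 bases after the start. Both strands were searched, and CGTCA or its reverse occurred in 24.6% and CCATNTT in 15.6% of 35116 windows of the same length over all genes. Of the 15 windows of the 10 genes, 7 held CGTCA or its reverse and 5 held CCATNTT. By gene, 6 had a window with CGTCA (CCNL1, CCNL2, CLK1, CLK3, CLK4 and SRPK2) and 4 had one with CCATNTT (CCNL2, CLK1, CLK4 and RBM5). Some genes have several windows, so these gene counts are not comparable with the shares of all windows. CCNL2 carried both motifs too, although its level in Medium 2 was lower. TGACGTCA, which contains CGTCA on both strands, was found in 1.85% of all windows and among these genes in CCNL1. CACGTG, the E-box bound by MYC and related factors, was found in CLK2 and CLK4 and in 7.26% of all windows, and in CLK4 it overlaps the end of the CGTCA. TGATGNAA, the ATF4-CEBP element, and TTCNNGAA, the heat shock dimer, were found in none of the 15 windows of these genes and in 3.62% and 7.74% of all windows. These letters were chosen after the windows had been read, and a match describes the sequence alone.

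Library totals ranged from 1346147 to 3083249 estimated counts with a median of 1901981. Of the epithelial markers, EPCAM ranged from 271 to 435 CPM (estimated counts scaled to 1e+06 per library) and KRT8 from 170.5 to 303 CPM, while VIL1 was at 0 in all 60 libraries. The 10 markers of fibroblasts, immune and endothelial cells found in the table summed to 1.91 to 10.3 CPM per library in Medium 2 and 6.15 to 18.0 CPM in Medium 1, mostly COL1A1, and the defining markers COL1A2, COL3A1 and CD3E were at 0 throughout. Ribosomal RNA genes took 0.96% to 5.89% of counts in Medium 2 libraries and 0.745% to 6.89% in Medium 1 libraries. With the 6 treatments averaged, COL1A1 was lower in Medium 2, at 4.06 ± 2.18 CPM, against 9.04 ± 2.66 CPM in Medium 1 (SD, n = 30 each; log2 difference −1.14, adjusted p = 3.53e-08 by edgeR). Of 7 epithelial markers tested, 3 were higher in Medium 2 by the same test (KRT8 0.17, ELF3 0.23 and CDH1 0.26 on the log2 scale) and 2 lower (KRT19 −0.22 and CLDN4 −0.12), while EPCAM and KRT18 did not pass, and in untreated spheroids alone the smallest adjusted p among these 8 genes was 0.0773 by edgeR, for ELF3. The part of these values in any result was not tested. Medium 1 libraries filled wells A1 to F4 and Medium 2 libraries wells G4 to D8, so the media shared plate column 4 alone, and medium and plate position cannot be told apart. Each group of 5 filled consecutive wells, so exposure and plate position cannot be told apart either. Wells B2 (butyrate, Medium 1) and A7 (kynurenine, Medium 2) stood far from their groups in an earlier analysis, and the counts of members passing each test below were the same without them. In bulk RNA, fewer cells of a type and less RNA per cell cannot be told apart. The labels call the 5 samples of a group biological replicates without saying whether they were separate cultures, so p-values below reflect only how far these samples spread, which may be technical.

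CLK1 and CLK4, the pair of kinases whose RNA was higher in Medium 2, differed by more than any other member. In untreated spheroids CLK1 stood at 56.8, 66.9, 73.7, 72.6 and 65.6 CPM in Medium 2, against 26.3, 19, 26.9, 26.6 and 29.7 CPM in Medium 1. Every Medium 2 library lay above every Medium 1 library. This is a 2.61-fold higher level in Medium 2, or 1.39 on the log2 scale (SE 0.19). CLK4 stood at 17.2, 25.9, 13.2, 27.1 and 18.6 CPM in untreated Medium 2 and at 4.39, 7.24, 5.50, 9.08 and 9.74 CPM in untreated Medium 1. Its libraries also did not overlap, although each level rested on few counts: 24 to 48 per library in Medium 2 and 9 to 19 in Medium 1. On the log2 scale CLK4 differed by 1.49 (SE 0.32), or 2.82-fold.

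CLK2, which phosphorylates SR proteins as CLK1 does, went the other way. Its untreated levels were 22.5, 21.1, 19.2, 17.2 and 22.9 CPM in Medium 2, against 44.4, 24.4, 45.2, 36.9 and 23.6 CPM in Medium 1. The libraries did not overlap, but the gap was narrow, since the Medium 1 libraries themselves spread widely. On the log2 scale CLK2 differed by −0.75 (SE 0.22). CLK3, a kinase of the same family, had 28.9, 14.6, 23.1, 25.1 and 16.1 CPM in untreated Medium 2 and 22.4, 29.9, 32.4, 24.8 and 27.7 CPM in untreated Medium 1. These ranges overlapped, and the log2 fold change of −0.35 had an SE of 0.25 and was −0.22 without well H4. An annotated copy of CLK2, CLK2P, held 13 counts in all against 3322 for CLK2, and how reads matching both were shared is not given in the sources used here.

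Shares of the CLK counts were read from the same libraries. Within a library the shares are tied, so higher CLK1 and CLK4, which were picked as such, lower those of CLK2 and CLK3. A lower share is therefore not in itself a lower level. CLK1 gave 51.8% ± 4.25 of the counts of the 4 kinases in untreated Medium 2 and 27.03% ± 3.59 in untreated Medium 1 (SD, n = 5 each). CLK2 gave 15.98% ± 2.61 in Medium 2 and 36.2% ± 7.94 in Medium 1, CLK3 16.6% ± 4.61 in Medium 2 and 29.1% ± 5.39 in Medium 1, and CLK4 15.6% ± 4.06 in Medium 2 and 7.71% ± 2.78 in Medium 1. CLK1 thus gave the largest share in Medium 2, whereas in Medium 1 CLK2 had the highest mean share. The 4 kinases summed to 129.6 ± 7.32 CPM in untreated Medium 2 and 95.3 ± 10.8 CPM in untreated Medium 1, and over all 30 libraries of a medium to 138.5 ± 21.4 CPM in Medium 2 and 100.1 ± 12.8 CPM in Medium 1. Because each count marks a 3′ end, these shares do not scale with transcript length.

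**Figure D1:**
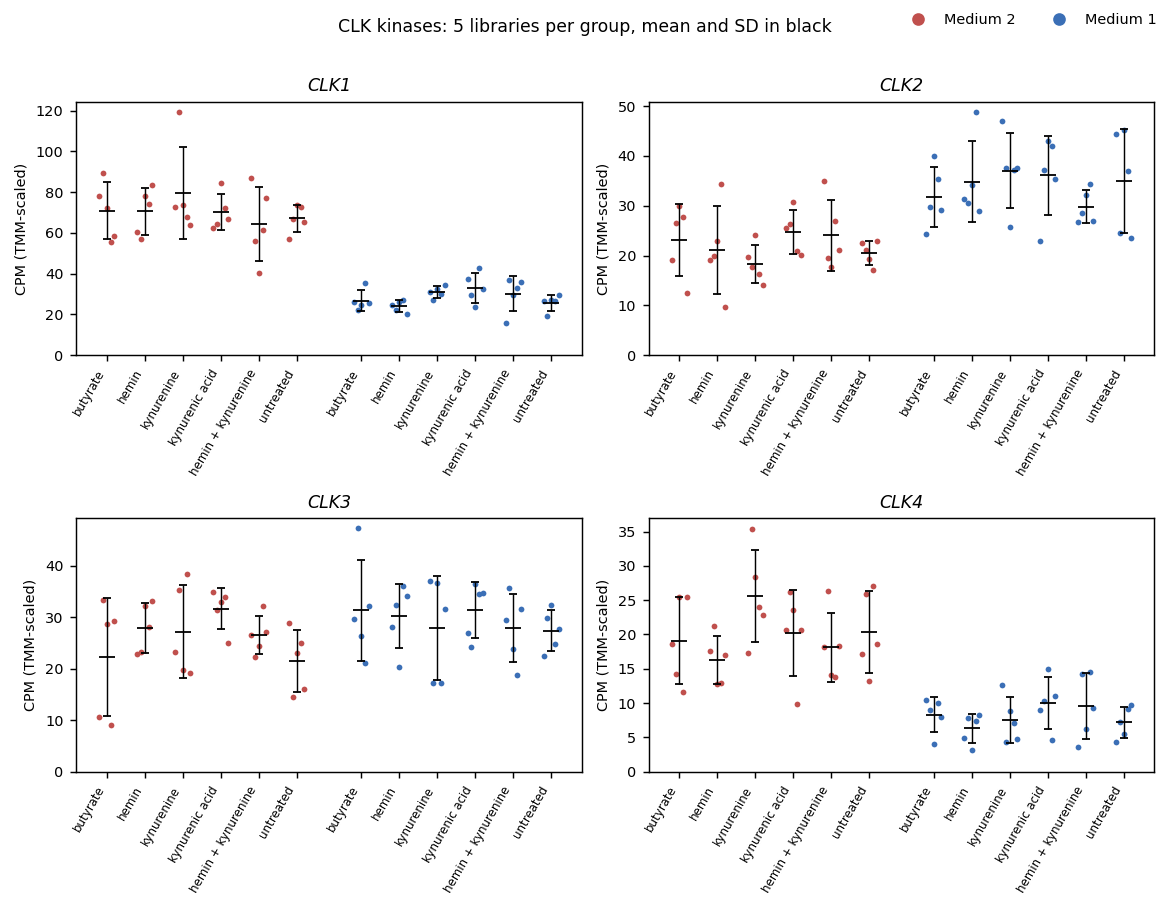
Level of each CLK kinase in CPM (TMM-scaled, linear axes from 0) in all 60 libraries, with the 6 treatments of Medium 2 in red on the left and those of Medium 1 in blue on the right, and mean and SD in black (n = 5). CLK1 means lie between 64.2 and 79.4 CPM in Medium 2 and between 24.05 and 33.1 CPM in Medium 1, while CLK3 overlaps throughout.

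The same order of media held across the treatments for both of the higher kinases. Mean CLK1 levels in Medium 2 were 70.9 ± 14 CPM with butyrate, 70.5 ± 11.4 with hemin, 79.4 ± 22.6 with kynurenine, 70.1 ± 8.82 with kynurenic acid, 64.2 ± 18.3 with hemin plus kynurenine and 67.1 ± 6.74 CPM untreated (SD, n = 5 each). In Medium 1 they were 26.7 ± 5.08 CPM with butyrate, 24.05 ± 2.85 with hemin, 31 ± 2.88 with kynurenine, 33.1 ± 7.35 with kynurenic acid, 30.2 ± 8.47 with hemin plus kynurenine and 25.7 ± 4 CPM untreated. The lowest Medium 2 mean was thus above the highest Medium 1 mean. Ordered from low to high, the 12 group means of CLK1 had 1 step between neighbours larger than the larger of their SDs, the step between the media. The other neighbours did not differ by more than that. CLK1 was picked on the difference between the media, and neighbours in a sorted list lie close, so nothing is read from these steps about the exposures. The medium difference of CLK1 ranged from 1.07 to 1.55 on the log2 scale over the 6 treatments, and its libraries were apart in all 6. Across all tested genes 22 were apart and higher in Medium 2 in each treatment, and 34 were apart and lower.

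CLK4 means ran from 16.3 ± 3.54 CPM with hemin to 25.6 ± 6.71 CPM with kynurenine in Medium 2, and from 6.33 ± 2.16 CPM with hemin to 9.98 ± 3.78 CPM with kynurenic acid in Medium 1 (SD, n = 5 each). Its medium difference ranged from 0.93 to 1.74 on the log2 scale, with libraries apart in 4 of 6 treatments. Such counts follow from how the genes were picked. CLK2 means ran from 18.3 ± 3.81 CPM with kynurenine to 24.7 ± 4.34 CPM with kynurenic acid in Medium 2, and from 29.8 ± 3.38 CPM with hemin plus kynurenine to 37.03 ± 7.57 CPM with kynurenine in Medium 1. Its log2 medium difference lay between −1.01 and −0.31, and its libraries were apart in 2 of 6 treatments. As for CLK1, the step between the media was the 1 step in the order of the 12 means of CLK4, and of CLK2, that exceeded the larger SD. CLK4 and CLK2 were picked on that difference too. CLK3 means ran from 21.6 ± 6.09 to 31.7 ± 3.92 CPM in Medium 2 and from 27.4 ± 3.95 to 31.4 ± 5.44 CPM in Medium 1, with the media interleaved and no step beyond the SD.

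The cyclins L, regulatory partners of CDK11, were lower in Medium 2. CCNL2 had 60.04, 83.1, 81.9, 62.7 and 66.8 CPM in untreated Medium 2, against 108, 88.2, 145, 135 and 130 CPM in untreated Medium 1, without overlap. Its log2 fold change was −0.77 (SE 0.14), the most negative of the 10 genes in untreated spheroids. CCNL1 had 71.8, 65.9, 85.2, 72.6 and 76.7 CPM in untreated Medium 2 and 101, 71.5, 96.6, 89.6 and 135 CPM in untreated Medium 1. Here 1 Medium 1 library fell inside the Medium 2 range, and the log2 fold change was −0.41 (SE 0.15), or −0.26 without well E1. Over the 6 treatments CCNL1 ranged from −0.77 with kynurenic acid to −0.19 with hemin on the log2 scale, and CCNL2 from −0.77 to −0.30.

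RBM5 and RBM6, the adjacent exon-choice regulators on chromosome 3, were also lower. RBM5 had 72.4, 58.3, 66.0, 66.7 and 63.7 CPM in untreated Medium 2 and 99.9, 86.8, 85.6, 87.8 and 106 CPM in untreated Medium 1, without overlap (log2 fold change −0.51, SE 0.19). RBM6 had 39.7, 39.9, 37.9, 33.7 and 42.7 CPM in untreated Medium 2, against 57.5, 66.9, 63.6, 62.4 and 56.9 CPM in untreated Medium 1. These also did not overlap, and the log2 fold change was −0.66 (SE 0.17). Over the treatments RBM5 ranged from −0.93 to −0.20 and RBM6 from −0.66 to −0.07 on the log2 scale, and RBM6 means interleaved, since hemin in Medium 1 (46.7 ± 8.21 CPM) was below kynurenic acid in Medium 2 (47.6 ± 8.45 CPM; SD, n = 5 each). The GENCODE spans of RBM5 and RBM6 overlap by 11138 bases on the same strand, at the start of RBM5 and the end of RBM6. Their RefSeq spans do not overlap, since RBM6 ends at base 50077249 and RBM5 starts at base 50088919. Which annotation the counts used is unknown, and whether counts were split between RBM5 and RBM6 was not tested. RBM5-AS1, the antisense gene over both in GENCODE, had no count in any library.

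SRPK1, the kinase that readies SR proteins for nuclear import, had 68.6, 82.0, 86.9, 91.1 and 90.3 CPM in untreated Medium 2 and 114, 105, 121, 108 and 118 CPM in untreated Medium 1. The libraries did not overlap, and the log2 fold change of −0.44 had the smallest SE of the 10 genes, 0.11. SRPK1 was between −0.56 and −0.27 on the log2 scale in the 6 treatments and apart in 4 of them. Its paralog SRPK2 had 158, 164, 140.2, 138 and 128 CPM in untreated Medium 2, against 172, 178, 144, 169 and 125 CPM in untreated Medium 1. Those ranges overlapped, with a log2 fold change of −0.11 (SE 0.12; −0.06 without well B1 or C5, −0.07 without A1, −0.18 without E1 and −0.20 with plate row as a term) that ranged from −0.34 to 0.02 over the treatments. KMT2E, whose GENCODE span overlaps the 3′ end of SRPK2 on the other strand, had 232 CPM in untreated Medium 2 and 198 CPM in untreated Medium 1. The GENCODE span of KMT2E ends at base 105114361, and the RefSeq span of SRPK2 reaches only to base 105114740, short of it. Whether counting used the strand is not given in the sources used here.

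**Figure D2:**
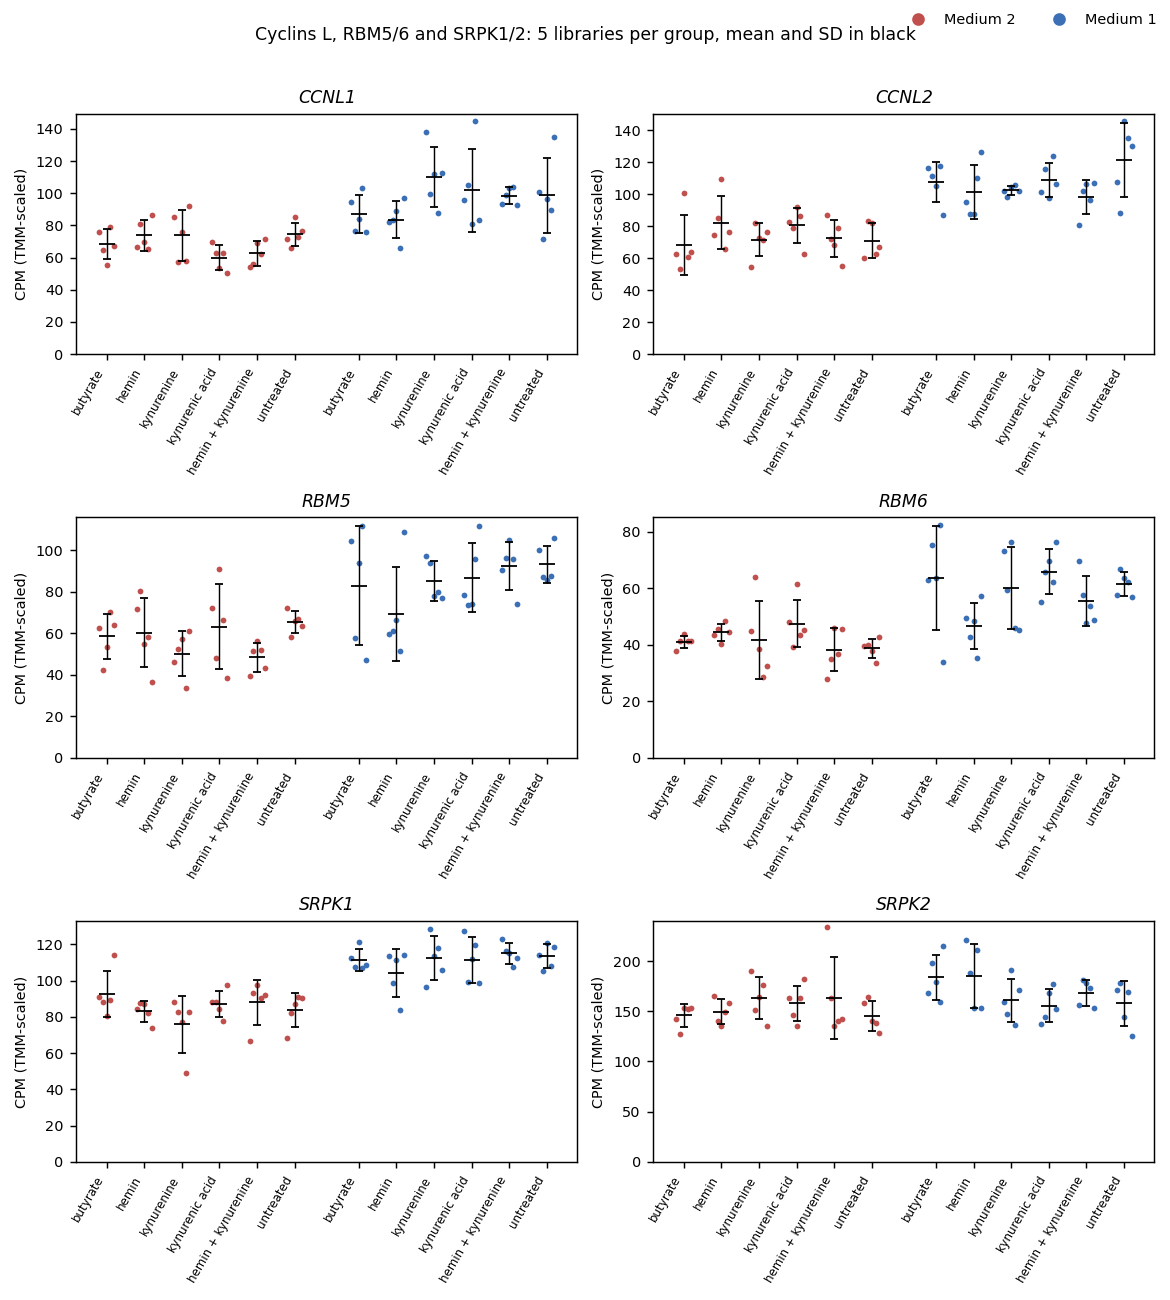
Level of CCNL1, CCNL2, RBM5, RBM6, SRPK1 and SRPK2 in CPM (linear axes from 0) in all 60 libraries, Medium 2 in red on the left and Medium 1 in blue on the right, mean and SD in black (n = 5). All 6 Medium 2 means lie below all 6 Medium 1 means for CCNL1, CCNL2, RBM5 and SRPK1, and the media interleave for RBM6 and SRPK2.

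Averaged over the 6 treatments, the log2 medium difference was 1.31 for CLK1, 1.29 for CLK4, −0.63 for CLK2, −0.56 for RBM5, −0.52 for CCNL2, −0.49 for CCNL1, −0.48 for RBM6, −0.39 for SRPK1, −0.17 for CLK3 and −0.13 for SRPK2. Over all 60 libraries no member had its 30 Medium 2 libraries apart from its 30 Medium 1 libraries, a separation that 0.0885% of tested genes had upwards and 0.15% downwards. In untreated spheroids 2 members were apart and above and 5 apart and below, where 3.99% and 4.46% of all tested genes were. For the 5 exposures one by one, the share of all tested genes that were apart was not taken. These counts, and the numbers of treatments with libraries apart given above, follow from how the genes were picked, and nothing is read from them.

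**Figure D3:**
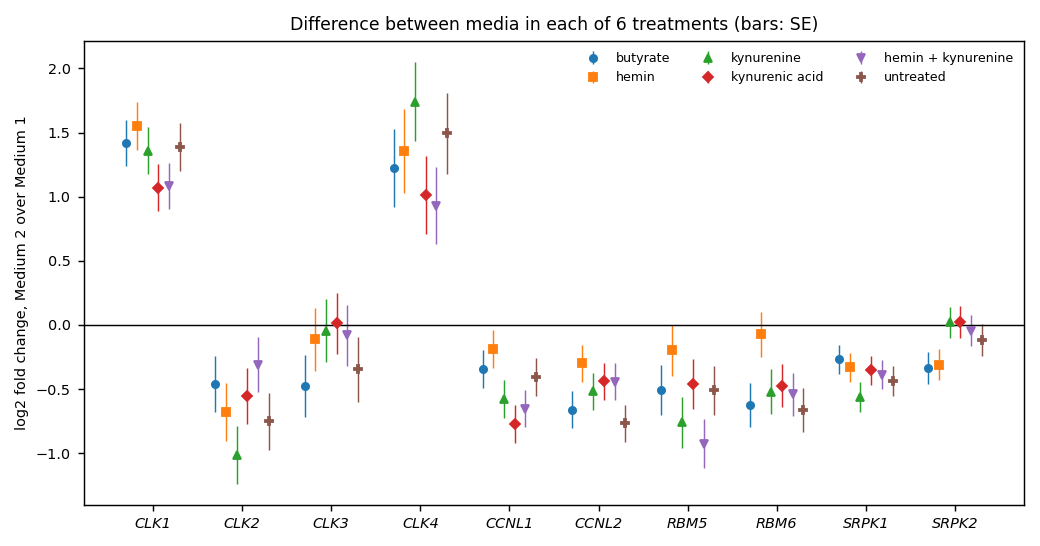
The log2 fold change of Medium 2 over Medium 1 for each of the 10 genes (x axis) in each of the 6 treatments (symbols), with SE bars from the fit of all libraries. CLK1 and CLK4 lie between 0.93 and 1.74 in all treatments, while 6 genes are below 0 in all, CLK3 runs from −0.48 to 0.01 and SRPK2 from −0.34 to 0.02.

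With all libraries in the fit, none of the 10 genes passed the threshold in an exposure comparison. In edgeR's quasi-likelihood F-test, adjusted by Benjamini-Hochberg over all genes, 0 of 10 genes passed in each of the 10 comparisons with untreated spheroids, and 6 of the 100 single tests had an unadjusted p under 0.05. DESeq2 called 0 of 100 as well, with 7 at an unadjusted p under 0.05. The shares of all tested genes that passed are given for edgeR, and DESeq2 called more in some comparisons, 131 genes against 63 for hemin plus kynurenine in Medium 2 and 568 against 15 for hemin in Medium 1. In Medium 2 the share passing by edgeR was 0% with butyrate, 0% with hemin, 0.0266% with kynurenine, 0.0177% with kynurenic acid and 0.558% with hemin plus kynurenine. In Medium 1 it was 0.00885% with butyrate, 0.133% with hemin, 0.0354% with kynurenine, 0% with kynurenic acid and 0.0266% with hemin plus kynurenine.

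Among the CLK kinases the exposure log2 fold changes ran from −0.09 to 0.38 for CLK1, from −0.22 to 0.25 for CLK2, from 0.02 to 0.55 for CLK3 and from −0.32 to 0.46 for CLK4. The 95% intervals of CLK1 reached from −0.49 to 0.76 over its 10 comparisons and those of CLK4 from −0.92 to 1.14, which leaves room for changes of those sizes. CLK3 with kynurenic acid in Medium 2 had the largest exposure difference of the 10 genes. It stood at 35, 31.5, 32.9, 34 and 25.1 CPM there, against 28.9, 14.6, 23.1, 25.1 and 16.1 CPM in untreated Medium 2. The groups overlapped in 1 exposed library, and the log2 fold change of 0.55 (SE 0.25) had an adjusted p of 0.571 by edgeR's quasi-likelihood test.

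RBM5 and RBM6 had their lowest Medium 1 means with hemin. RBM5 stood at 59.5, 61.2, 66.5, 51.3 and 109 CPM with hemin in Medium 1, against 99.9, 86.8, 85.6, 87.8 and 106 CPM untreated. All hemin libraries but well G2 lay below every untreated library, and well G2 lay above them all. The log2 fold change was −0.43 (SE 0.19, edgeR adjusted p = 0.18). Without well G2 it was −0.64 with an adjusted p of 0.0273 by the same test, so the call on RBM5 turned on that 1 library. The library moved the whole comparison: 1205 of 11395 tested genes, or 10.6%, passed without well G2, against 15 genes with it. RBM6 had an adjusted p of 0.075 by edgeR's quasi-likelihood test without that well. RBM6 stood at 49.6, 42.7, 48.5, 35.4 and 57.5 CPM with hemin in Medium 1, against 57.5, 66.9, 63.6, 62.4 and 56.9 CPM untreated. Its highest hemin library, again well G2, reached the lower untreated ones, and the log2 fold change was −0.39 (SE 0.17, adjusted p = 0.161 by edgeR). In Medium 2 hemin gave RBM6 levels of 43.4, 45.7, 40.3, 48.3 and 44.5 CPM, against 39.7, 39.9, 37.9, 33.7 and 42.7 CPM untreated, a log2 difference of 0.20 (SE 0.18).

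RBM5 was also lower with hemin plus kynurenine in Medium 2, at 39.2, 51.6, 56.2, 51.9 and 43.1 CPM, against 72.4, 58.3, 66.0, 66.7 and 63.7 CPM untreated. The libraries did not overlap, but the log2 fold change of −0.43 (SE 0.20) had an adjusted p of 0.311 by edgeR's quasi-likelihood test. The share of all tested genes apart in this comparison was not taken, so nothing is read from the lack of overlap. The exposed libraries were also deeper, with totals of 2151094 to 2981629 counts, against 1617485 to 1934972 untreated, and the part of depth was not tested. CCNL1 stood at 69.5, 63.0, 53.7, 62.8 and 50.7 CPM with kynurenic acid in Medium 2, against 71.8, 65.9, 85.2, 72.6 and 76.7 CPM untreated, with overlap and an adjusted p of 0.599 by edgeR. CCNL2 stood at 80.5, 102, 106, 96.4 and 107 CPM with hemin plus kynurenine in Medium 1, against 108, 88.2, 145, 135 and 130 CPM untreated (adjusted p = 0.95 by edgeR). SRPK1 and SRPK2 had the tightest exposure estimates, from −0.14 to 0.15 and from −0.02 to 0.23 on the log2 scale.

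**Figure D4:**
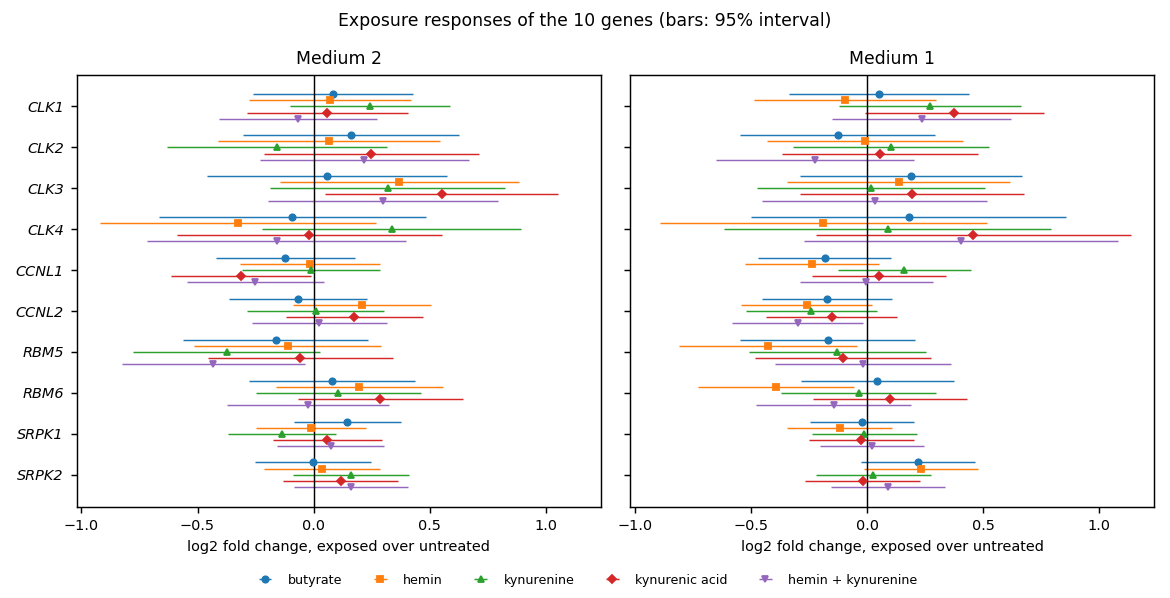
The log2 fold change of each exposure over untreated spheroids (x axis) for the 10 genes (y axis), Medium 2 on the left and Medium 1 on the right, with 95% intervals. Values lie between −0.43 and 0.55, no adjusted p is under 0.05, and CLK4 has the widest intervals.

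Joint tests gave the same count. With all 5 exposures tested together by edgeR's quasi-likelihood test, 0 of 10 genes passed in Medium 2, beside 0.142% of tested genes, and 0 of 10 in Medium 1, beside 0.0797%. No joint test had an unadjusted p under 0.05 for any of them, and DESeq2's joint tests called 0 with 0 under that level. Whether the medium difference varied with the exposure was tested in the same way: 0 of 10 genes passed, beside 0.487% of tested genes, and CCNL1 had the smallest unadjusted p, 0.073 (edgeR adjusted p = 0.356). If the genes were picked on the untreated spheroids, that test shares samples with the choice. The same holds for the joint tests and for each comparison of an exposure with untreated spheroids. Taken one exposure at a time, the largest difference in response was that of RBM6 to hemin, 0.59 (SE 0.25) on the log2 scale between Medium 2 and Medium 1, with an unadjusted p of 0.02 and an adjusted p of 0.296 by edgeR's quasi-likelihood test.

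Kynurenine and kynurenic acid were given at the same dose, and differ in structure in that kynurenic acid has its side chain closed into a second aromatic ring. By edgeR's quasi-likelihood test 0 of 10 genes differed between them in either medium, with 0 of 20 tests at an unadjusted p under 0.05 and 0 calls by DESeq2, beside 0.00885% of tested genes in Medium 2 and 0.0354% in Medium 1. The log2 differences, kynurenic acid minus kynurenine, ran from −0.36 for CLK4 to 0.41 for CLK2 in Medium 2 and from −0.11 for CCNL1 to 0.37 for CLK4 in Medium 1. Their 95% intervals spanned −0.91 to 0.87 in Medium 2 and −0.47 to 1.04 in Medium 1, which leaves room for differences of those sizes.

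Genes around the members were taken from 6 lists of splicing factors and kinases, and 107 of them were tested. The lists were chosen with earlier results of these data known, so their counts are not independent of the data. Between the untreated media 3 were higher and 5 lower in Medium 2 by edgeR's quasi-likelihood test, which is 2.80% and 4.67% of the list genes beside 2.69% and 3.69% of all tested genes. The SR-related speckle proteins had 0 higher and 4 lower of 26, the SR proteins, the substrates of CLK and SRPK kinases, 1 higher and 0 lower of 11, and the other kinases of splicing and transcription 2 higher and 0 lower of 17. The other RBM proteins had 0 higher and 1 lower of 30. No gene of 3′ splice site recognition (0 of 15) and no SR protein phosphatase gene (0 of 8) passed that test. The list medians were 0.12 for SR proteins, −0.10 for the speckle proteins, 0.07 for the kinases, −0.04 for the other RBM proteins, 0.12 for 3′ splice site recognition and 0.09 for the phosphatases on the log2 scale, beside a median near 0.00 for all tested genes.

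NKTR, a cyclophilin with an arginine- and serine-rich tail, fell most: 51.5 ± 12.97 CPM in untreated Medium 2 and 123.1 ± 30.7 CPM in untreated Medium 1 (SD, n = 5 each), or −1.25 on the log2 scale (SE 0.18; edgeR adjusted p = 1.2e-06). LUC7L3, a U1 snRNP-associated protein, had 313 ± 12.4 CPM in Medium 2 and 506 ± 41.8 CPM in Medium 1 (log2 fold change −0.69, adjusted p = 5.2e-06 by edgeR). ARGLU1 (−0.54, adjusted p = 0.00616 by edgeR) and SREK1 (−0.50, adjusted p = 0.0133), both speckle proteins rich in arginine, were lower as well. CCNT1, the cyclin of the elongation kinase P-TEFb, rose to 153 ± 16.4 CPM in untreated Medium 2, against 113 ± 9.68 CPM in Medium 1 (log2 fold change 0.44, adjusted p = 0.000544 by edgeR). SRSF6 (0.24, adjusted p = 0.0335 by edgeR), HIPK3 (0.51, adjusted p = 0.0382) and RBM41 (−0.61, adjusted p = 0.0419) passed narrowly. The call on SRSF6 was lost in 8 of 15 alternatives, among them without well B1, C1, E1, H4 or C5 (highest adjusted p 0.194). That on HIPK3 was lost in 9, without any 1 of the untreated libraries except A1 and G4 among them (highest 0.117). That on RBM41 was lost in 9, without C1, D1, E1, G4, H4, A5 or B5 among them (highest 0.17), and that on SREK1 without well B5 (0.0576).

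**Figure D5:**
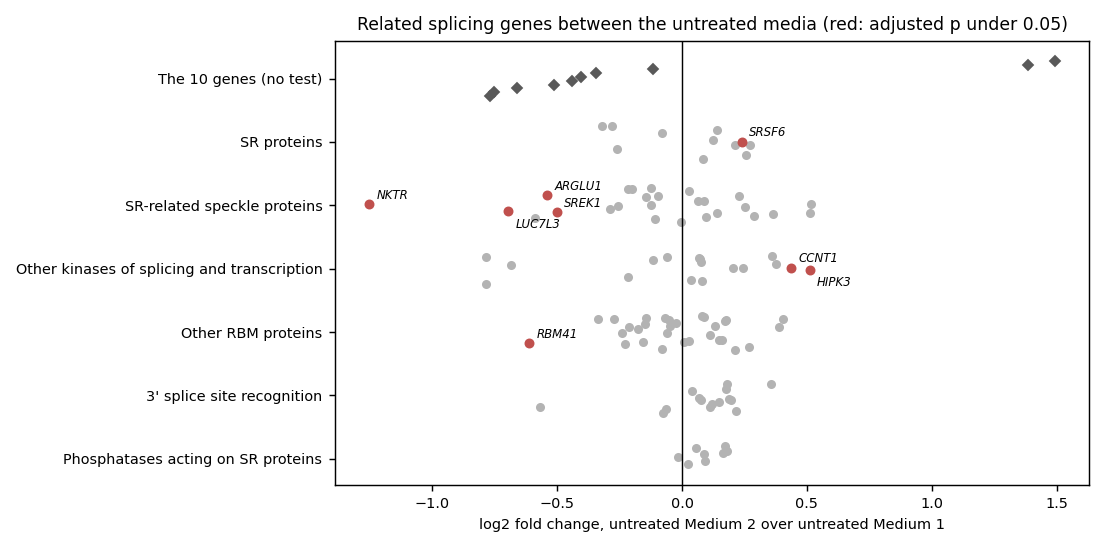
The log2 fold change of untreated Medium 2 over untreated Medium 1 (x axis) for the 10 genes in grey diamonds, with no test, and for 107 genes of 6 related lists (y axis; vertical jitter is only for legibility), red where the adjusted p was under 0.05. NKTR at −1.25 is the lowest point, and CLK1 and CLK4 stand above every list gene.

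Other genes of these lists did not pass in untreated spheroids. SRSF5 (352 ± 28.2 CPM in Medium 2, 440.2 ± 10.7 CPM in Medium 1) had an adjusted p of 0.059 by edgeR's quasi-likelihood test, and SRSF2 (1087 ± 87.9 CPM in Medium 2, 909 ± 99.3 CPM in Medium 1) one of 0.0924. SRSF10, CDK10, DYRK1A and PUF60 had adjusted p-values of 0.106, 0.0763, 0.105 and 0.0996 by the same test. RBM3, RBM10 and RBM15 had 0.197, 0.29 and 0.344, and the phosphatase subunit genes PPP1R8, PPP1CB, PPP1CC and PPP1CA had 0.44 to 0.746. With the 6 treatments averaged, 39 of the 107 genes were higher and 26 lower in Medium 2 by the same test, 36.4% and 24.3% beside 22.8% and 23.3% of all tested genes. Because the lists were chosen with earlier results known, no excess is read from these shares. SR proteins had 7 higher and 3 lower of 11, the speckle proteins 8 higher and 12 lower of 26, and 3′ splice site recognition 7 higher and 1 lower of 15.

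Among the exposures LUC7L3 was the list gene that passed against untreated spheroids. It rose to 461 ± 54.04 CPM with hemin plus kynurenine in Medium 2, against 313 ± 12.4 CPM untreated (SD, n = 5 each; log2 fold change 0.56, SE 0.11, edgeR adjusted p = 0.0023). The exposed libraries were also deeper, with totals of 2151094 to 2981629 counts, against 1617485 to 1934972 untreated. They filled another stretch of the plate, so exposure and position cannot be told apart, and the part of depth was not tested. In Medium 1 its levels were 482 ± 77.5 CPM with hemin plus kynurenine and 506 ± 41.8 CPM untreated. LUC7L3 also passed the joint test of 5 exposures in Medium 2 (adjusted p = 0.0202 by edgeR) and the test of a medium difference that varies with the exposure (adjusted p = 0.0295). The first was lost in 7 of 36 alternatives, among them without well A5, B5, C5, H7, A8 or C8 (highest adjusted p 0.121), and the second in 7 of 65, each without 1 library (G1, D4, E4, D5, G5, E6 or H7; highest 0.0674). HIPK2, a kinase that acts on transcription factors, passed the test of varying medium difference with an adjusted p of 0.0476 by edgeR, which was lost in 46 of 65 alternatives (highest adjusted p 0.118).

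Other genes had patterns like those of CLK1 and CLK2 over the 12 groups. Of 8740 genes with a mean of at least 10 CPM, 270 had a Pearson correlation above 0.9 with CLK1 over the 12 group means of log2 CPM, led by C4orf46 (0.984), MCM2 (0.984) and HERPUD1 (0.981). For CLK2 150 genes were above 0.9, led by KLHL17 (0.967), YEATS2 (0.966) and EIF4A2 (0.966). Within the 10 genes CLK1 correlated with CLK4 at 0.977 and with CLK2 at −0.925, and RBM5 with RBM6 at 0.892. Among other pairs, RBM6 correlated with CCNL2 at 0.924 and RBM5 with SRPK1 at 0.902. CLK1, CLK4, CLK2, RBM5 and RBM6 were picked on their direction between the media, so the signs among them follow from the choice. These values describe 12 points that fall into 2 media and share their libraries. SCAMP3, which starts 438 bases beyond the 3′ end of CLK2 on the same strand, had 28.04 CPM in untreated Medium 2 and 26.2 CPM in untreated Medium 1 (log2 fold change 0.09, edgeR adjusted p = 0.891).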

How the data were processed

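Gene-level RNA abundance was measured in 60 QuantSeq 3′ FWD libraries of HCT116 spheroids, made from 48 ng of RNA with unique molecular identifiers and 18 PCR cycles per the labels' protocols. The deposited values are the authors' estimated counts per gene. The tools named by the submitters' processing notes are Salmon 1.5.2, STAR, cutadapt 3.4, UMI-tools 1.1.2 and FastQC 0.11.9, with the GRCh38 build. Order, settings, strand option and annotation: not given in the sources used here. Samples were grouped by title and columns by the group in their names.

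The estimated counts were rounded, filtered with edgeR's filterByExpr (minimum count 10, minimum total 15; 11298 of 29744 genes, 99.6% of counts), TMM-normalized and fitted once over all 60 libraries with 12 group means and 48 residual degrees of freedom (edgeR 4.0.16, R 4.3.3). Contrasts were tested two-sided with the quasi-likelihood F-test and adjusted by Benjamini-Hochberg over all tested genes at 0.05. CPM are TMM-scaled, and SE is the absolute log2 fold change over the square root of F. The steps were run on simulated counts for the comparison of kynurenine with untreated spheroids in Medium 2 alone. Outlying wells and plate position were not simulated, so that run cannot speak to them. No 2 replicates agreed within sampling noise: the chi-square per degree of freedom was 2.18 to 19.6 over 120 pairs. At library totals of 1346147 to 3083249 counts, members with few counts, such as CLK4, have the widest intervals.

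The members and the related lists were chosen with earlier results of these data known. Named genes were all members; up to 4 genes per related list by smallest p between untreated media, with at least 10 CPM; list genes passing an exposure test; and the 3 genes most like CLK1 and like CLK2. Promoter windows and gene coordinates are RefSeq GRCh38.p14, and transcript types are GENCODE's. Alternatives were RLE size factors, no filter, plate row as a term, DESeq2 1.42.0, fits of the compared groups alone, each library left out in turn, and both of wells B2 and A7 left out. Motifs, overlapping genes and the tests of single differences in response were chosen after the data had been seen.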

Additional observations from a re-analysis of the deposited data

Results flagged for a closer look

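Of 120 groups of 5 libraries checked for a library far from the other 4, 7 had one, where a rate of 1 in 20 by chance gives 6. CLK1 was high in well G6 of kynurenine in Medium 2, at 119 CPM against 63.8 to 73.5 CPM in the other libraries. CLK2 was high in well F2 of hemin in Medium 1, at 48.9 CPM against 29 to 34.2 CPM. CCNL2 was high in well F5 of butyrate in Medium 2, at 100.5 CPM against 53.1 to 63.5 CPM. RBM5 was high in well G2 of hemin in Medium 1, at 109 CPM against 51.3 to 66.5 CPM, and its hemin difference passed the test without that well, as did 10.6% of all tested genes. SRPK1 was low in well A7 of kynurenine in Medium 2, at 48.8 CPM against 77.4 to 88.4 CPM. In well H7 of hemin plus kynurenine in Medium 2, SRPK1 was low at 66.6 CPM against 90.7 to 97.4 CPM, and SRPK2 was high at 234 CPM against 135.5 to 163 CPM.

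RBM6 had hemin differences of opposite sign, 0.20 (SE 0.18) in Medium 2 and −0.39 (SE 0.17) in Medium 1 on the log2 scale, neither of which passed the test, with every exposed library on one side of the untreated mean in each medium. The difference between these responses had an adjusted p of 0.296 by edgeR's quasi-likelihood test.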

How the results depend on the processing

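The number of the 10 genes passing each of the 15 tests was unchanged in 319 of 320 alternative fits. The exception was hemin in Medium 1, where leaving out 1 library at a time gave 0 to 1 genes: RBM5 passed without well G2. The log2 medium differences of the 10 genes kept their sign in all alternatives, 15 for untreated spheroids and 65 for the mean over treatments, and moved by less than 1 SD of a gene's log2 CPM within groups. In untreated spheroids CLK1 ranged from 1.30 to 1.48, CLK4 from 1.36 to 1.64, CLK2 from −0.86 to −0.64, CCNL2 from −0.85 to −0.69, RBM6 from −0.72 to −0.61, RBM5 from −0.56 to −0.46 and SRPK1 from −0.46 to −0.36. The ranges were wider for their size in CCNL1 (−0.49 to −0.26), CLK3 (−0.47 to −0.22) and SRPK2 (−0.20 to −0.06). No paired analysis was possible because the columns carry a well but no replicate number.

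Of the related lists, the 3 genes higher in untreated Medium 2 became 1 with plate row as a term and 7 with only the compared groups in the fit, and 1 to 4 when a library was left out, with 1 without wells C1, E1, H4 or C5. The 5 lower became 8 with only the compared groups, and 3 to 6 when a library was left out, with 3 without well B5. The causes were not tested.

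Counts of all called genes depended more on the settings. Hemin in Medium 1 had 15 calls, but 568 with DESeq2, 255 with the compared groups alone, 225 with no filter, 1 with plate row and 0 to 1205 with 1 library left out, the highest without well G2. Hemin plus kynurenine in Medium 2 had 63 calls, 131 with DESeq2 and 15 to 63 with 1 library left out. The joint test in Medium 2 had 16 calls, but 124 with DESeq2, 43 with no filter, 54 without wells B2 and A7, 9 with the compared groups alone and 9 to 81 with 1 library left out. That in Medium 1 had 9 calls, but 78, 84, 88, 5 and 5 to 277 under the same settings, the highest without well G2. The test of a varying medium difference had 55 calls, but 288 with DESeq2, 166 with no filter, 156 without wells B2 and A7, 12 with plate row and 14 to 381 with 1 library left out. Genes higher in untreated Medium 2 numbered 304, and 548 with the compared groups alone, and those lower 417, and 276 without well B5. Comparisons with 4 or fewer calls stayed at 13 or fewer.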
